A study of Mus musculus with 36 samples.

Results

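This report describes how liver chromatin accessibility differed between B6C3F1 and C57BL/6 mice that had received drinking water only. DNase I hypersensitive sites (DHSs) are short stretches of open chromatin that DNase I cuts readily, and most lie at promoters, enhancers and insulators. The comparison used 8 DNase-seq samples, 4 per strain, of the 36 samples in the series, and the 96287 DHSs on the 19 autosomes of 98170 in all. Every male mouse gave frozen whole liver after 91 days. The C57BL/6 mice, from Taconic, were 9 to 11 weeks old on arrival. The B6C3F1/Ctrl mice, from Charles River, were 4 to 5 weeks old. B6C3F1 is the first-generation cross of a C57BL/6 female with a C3H/He male, so each autosome pair is a C57BL/6 copy and a C3H copy, whereas a male's X chromosome comes from the C57BL/6 mother. Strain, supplier, age and study were confounded in this design and cannot be told apart. A further 5 mice per strain had received 0.05% (wt/vol) phenobarbital (PB) in their water for the same time and served as a second set of animals. Matched RNA-seq came from the same livers.

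In liver, open chromatin is held by hepatocyte factors such as the forkhead (FOXA), HNF4A and C/EBP proteins, while CTCF marks insulators and loop anchors. DNA variants that alter such binding sites change accessibility on the chromosome copy that carries them. Reads of an F1 animal come from both parental copies at once, so a signal lost from one copy leaves that of the other. Log2 fold changes (log2 FC) are given throughout as B6C3F1 against C57BL/6.

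Depth differed between the strains. The C57BL/6 samples held 21.4 to 58.1 M (megareads) in DHSs and the B6C3F1 samples 7.01 to 24.4 M, the lowest being B6C3F1 mouse 3. Correlations of log2 counts over autosomal DHSs were 0.963 to 0.982 among C57BL/6 mice, 0.914 to 0.958 among B6C3F1 mice and 0.878 to 0.933 between strains. Hepatocyte transcripts dominated the RNA, with albumin at 57453 ± 6463 CPM (reads of a gene scaled to library size; SD, n = 4) in C57BL/6 and 63576 ± 2014 in B6C3F1. Of the 6 cell type marker lists, the hepatocyte, macrophage, endothelial, stellate and cholangiocyte lists had 0 genes called in RNA, and in the lymphocyte list Ms4a1, a B cell gene under 1 CPM in all 8 mice, was lower in B6C3F1. The summed macrophage markers ran from 186 to 238 CPM in B6C3F1 and from 243 to 347 CPM in C57BL/6, without overlap, and their part in the results was not tested. In whole liver, fewer cells of a type and less signal per cell cannot be told apart.

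The sequences below are the central 200 bases of DHSs at the extremes of the strain difference, shown because their accessibility was far lower in one strain. They are the plus strand of the GRCm38 (mm10) reference, read 5′ to 3′. This is the C57BL/6J sequence, and the C3H copy was not read. Capitals mark matches, on either strand, to the words searched further on. The first lies at the Cyp2a22 promoter (chr7:26939333-26939532), the second 13.6 kb from that start site (chr7:26952854-26953053) and the third inside Trpm3 (chr19:22851990-22852189), and all were higher in B6C3F1. The fourth, inside Rxfp1 (chr3:79688251-79688450), and the fifth, nearest to Skint10 (chr4:112941917-112942116), were lower.
Cyp2a22 promoter: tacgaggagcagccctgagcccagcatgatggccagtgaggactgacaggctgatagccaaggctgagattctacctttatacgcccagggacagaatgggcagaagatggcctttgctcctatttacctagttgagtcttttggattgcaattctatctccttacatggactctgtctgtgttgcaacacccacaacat
Cyp2a22 distal: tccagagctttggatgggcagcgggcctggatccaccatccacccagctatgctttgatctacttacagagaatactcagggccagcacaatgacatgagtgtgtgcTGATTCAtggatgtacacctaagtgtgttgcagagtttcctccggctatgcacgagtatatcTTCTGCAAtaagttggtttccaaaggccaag
Trpm3 intragenic: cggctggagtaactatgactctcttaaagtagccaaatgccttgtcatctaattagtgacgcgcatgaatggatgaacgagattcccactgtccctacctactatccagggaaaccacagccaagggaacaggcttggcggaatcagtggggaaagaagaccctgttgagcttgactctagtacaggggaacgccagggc
Rxfp1 intragenic: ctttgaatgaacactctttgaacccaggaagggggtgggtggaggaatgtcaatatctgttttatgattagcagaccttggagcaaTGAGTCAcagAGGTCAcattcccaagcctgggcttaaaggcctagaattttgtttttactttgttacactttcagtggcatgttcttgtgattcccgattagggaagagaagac
Skint10 region: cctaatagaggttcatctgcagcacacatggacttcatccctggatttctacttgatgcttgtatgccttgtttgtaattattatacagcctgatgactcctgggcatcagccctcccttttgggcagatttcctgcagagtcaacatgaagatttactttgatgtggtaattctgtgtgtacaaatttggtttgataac

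Accessibility differed at 10195 autosomal DHSs, 10.6% of those tested (limma on log2(normalized count + 1), Benjamini-Hochberg FDR of at most 0.01 over all 98170 DHSs and an absolute log2 FC of at least 0.58). Of these, 5983 (6.21% of DHSs) were higher in B6C3F1 and 4212 (4.37%) were lower. The groups did not overlap at 10035 of the called DHSs, against 27.9% of all autosomal DHSs. The count depended on the animals, running from 4955 without C57BL/6 mouse 2 and 5092 without C57BL/6 mouse 1 to 12425 without the shallow B6C3F1 mouse 3, and thinning each sample to the depth of that mouse left 5750. The share of calls in the higher direction, 58.7%, also depended on scaling. It was 48.1% when each sample was centred on its median, 51.5% without B6C3F1 mouse 3 and 36.5% in the PB-treated mice.

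The sizes differed by direction. Higher calls had a median log2 FC of 0.91 (quartiles 0.75 and 1.12) and lower calls a median of -0.996 (quartiles -0.80 and -1.31). Between 0.8 and 1.2 in absolute size lay 48.1% of higher and 42.5% of lower calls. Beyond an absolute log2 FC of 3 there were 184 higher calls but 21 lower calls. In PB-treated mice the same tail held 161 higher and 35 lower calls.

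**Figure D1:**
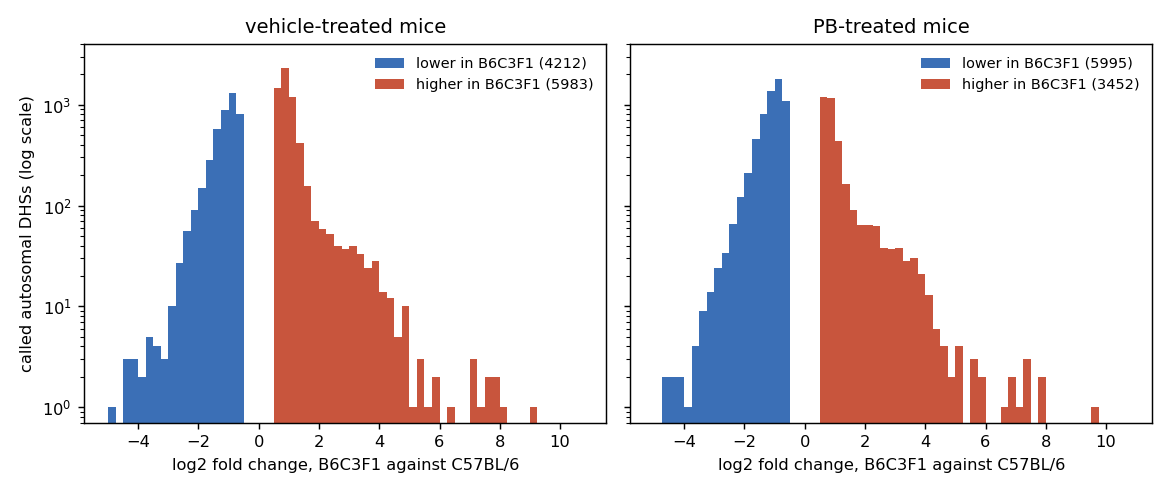
Histograms of log2 FC (B6C3F1 against C57BL/6, x axis) for called autosomal DHSs, with the number of DHSs on a log y axis, in vehicle-treated (left) and PB-treated (right) mice. In both sets the higher calls run out past a log2 FC of 6, whereas the lower calls end near -5.

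The PB-treated mice, which shared no animal with the vehicle comparison but carried the same confounding of strain with age and supplier, gave the same direction at 10143 of the 10195 DHSs (99.5%). Of the vehicle calls, 4863 (47.7%) were also called there, which was 51.5% of the 9447 PB calls (9.81% of DHSs, 3.59% higher and 6.23% lower). None was called in the opposite direction. The interaction of strain with treatment gave 0 called DHSs by limma, with 5215 at an unadjusted p under 0.05 and a smallest FDR of 0.199.

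Differing DHSs were found on every autosome at similar rates. The share called ran from 8.69% on chromosome 16 (312 of 3589) to 12.1% on chromosome 4 (770 of 6340), with a median over autosomes of 10.5%. Chromosome 4 also had the highest share in PB-treated mice, 11.4%. The share of calls that were higher ran from 51.3% on chromosome 19 to 66.7% on chromosome 3. On chromosome X, where males of both strains carry a C57BL/6 copy, 80 of 1855 DHSs (4.31%) were called. The X count ran from 19 without C57BL/6 mouse 2 to 124 without B6C3F1 mouse 3, and was 24 without C57BL/6 mouse 1, 35 without C57BL/6 mouse 5 and 48 without B6C3F1 mouse 1. The X share stayed under the autosomal one in each alternative fit that was run. In PB-treated mice it was 5.07%. The X DHSs had a slightly larger median standard error, 0.224 against 0.200. On chromosome Y, which comes from C3H in B6C3F1, 6 of 28 DHSs (21.4%) were called.

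Along the autosomes, DHSs were counted in 2 Mb windows numbered from the first base, and the 1005 windows with at least 20 DHSs were assessed. The share called per window had a median of 10.0%, with the central 80% of windows between 5.00% and 17.0% and a full range of 0 to 51.6%. Windows with at least 2 times the autosomal share (21.2% or more) were termed rich and those with at most 0.5 times (5.29% or less) poor. There were 39 rich windows on 16 autosomes and 120 poor windows on all 19. The rich windows held 2.30% of autosomal DHSs and 5.90% of the calls, and the poor windows held 8.88% and 3.33%. Calls in rich windows were larger, with a median absolute log2 FC of 1.08 against 0.93 in middle and 0.86 in poor windows, and 36 of the 601 rich-window calls but 1 of the 340 poor-window calls passed 3. The classes depended on the animals: without C57BL/6 mouse 1 there were 86 rich and 246 poor windows, 33 and 95 of them among those above, and without C57BL/6 mouse 2 there were 83 and 243, with 33 and 90 shared.

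**Figure D2:**
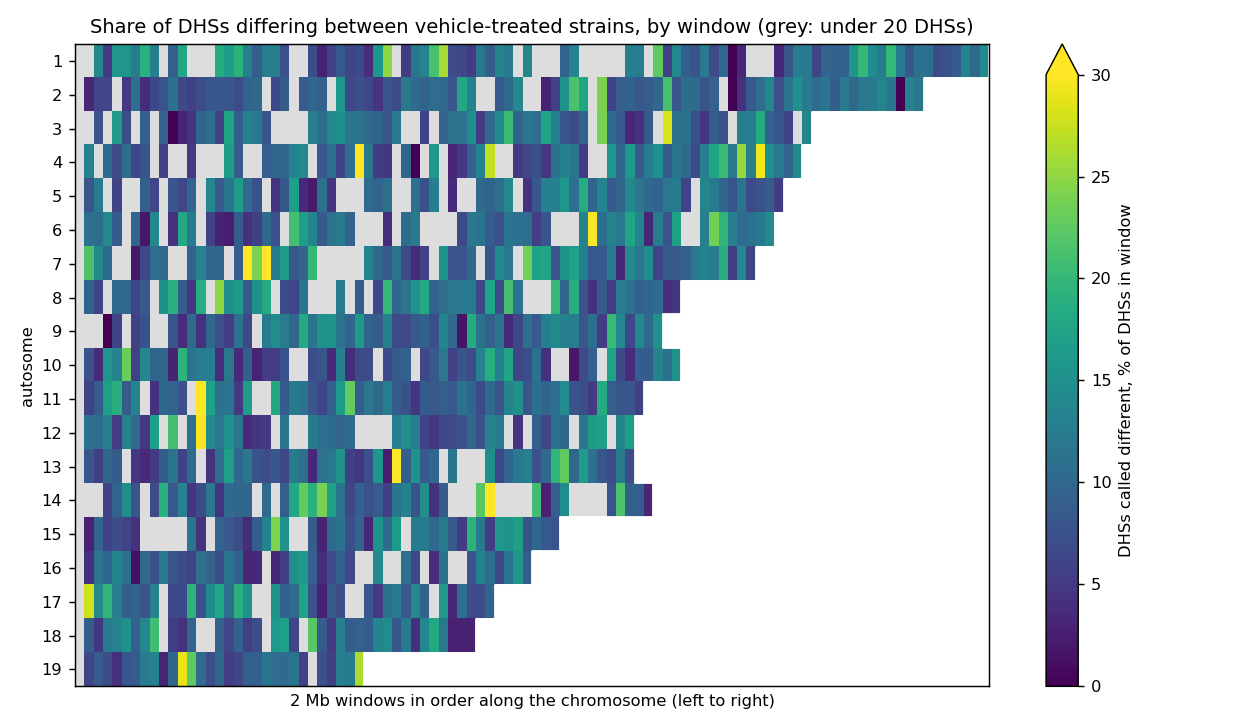
Heat map of the percentage of DHSs called in each 2 Mb window, with 1 row per autosome and windows in order from left to right. Grey windows held fewer than 20 DHSs and the colour scale stops at 30%. Single bright windows stand among darker neighbours on most autosomes, with a run of 3 on chromosome 7.

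Rich windows mostly stood alone. Only 4 blocks of adjacent rich windows were found, covering 9 windows, while the poor windows formed 14 blocks covering 33 windows. The shares of adjacent windows had a Pearson r of 0.21 over 865 pairs, given as a description. The longest rich block, chr7:36000001-42000000 (3 windows), held 33 calls among 116 DHSs (28.4%), 24 of them higher, with 24.1% called in PB-treated mice. It contains Ccne1, which encodes cyclin E1, and Uri1. The block at chr19:22000001-26000000 held 47 calls of 187 (25.1%), with Trpm3 and Klf9. The block at chr1:76000001-80000000 held 23 of 94 (24.5%), 17 of them lower, near Pax3, Epha4 and Acsl3. The fourth block, chr14:86000001-90000000, had 24 of 67 (35.8%). Among poor blocks, the longest by windows and DHSs were chr10:38000001-44000000 (15 of 321, 4.67%, with Foxo3), chr18:80000001-86000000 (5 of 178, 2.81%) and chr12:36000001-42000000 (7 of 149, 4.70%).

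The window with the highest share was chr14:88000001-90000000, a gene-poor stretch around Pcdh20, a protocadherin gene, where 16 of 31 DHSs were called, 8 in each direction. The second was chr4:60000001-62000000, which holds the major urinary protein (Mup) gene cluster, with 53 of 118 called, 22 higher and 31 lower. The third, chr13:68000001-70000000, had 36 of 84, 13 higher and 23 lower, around Adcy2, an adenylate cyclase gene, and Nsun2, an RNA methyltransferase gene. The fourth, chr6:110000001-112000000 in Grm7, had 8 of 20, and the fifth, chr11:26000001-28000000 around Fancl and Vrk2, had 16 of 41. In the PB-treated mice these windows had shares of 48.4%, 42.4%, 44.0%, 35.0% and 46.3% in that order. Each stayed rich in every alternative fit in which it could be assessed.

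At the other end, 6 windows had 0 calls. The 5 with most DHSs were chr3:20000001-22000000 (54 DHSs), chr9:6000001-8000000 (44), chr4:72000001-74000000 (39), chr1:140000001-142000000 (27) and chr2:140000001-142000000 (23). In PB-treated mice 3, 2, 0, 0 and 0 of their DHSs were called. The window on chromosome 1 was not poor in 5 of 23 alternative fits, and that of chromosome 3 in 1.

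Across windows, the class carried over to the second set of animals. Of the 39 rich windows, 22 were rich in PB-treated mice, which was 22 of the 56 rich there, and none was poor. Of the 120 poor windows, 65 were poor again, of 156 there, and none was rich. The shares of the 1005 windows had a Spearman rho of 0.61 between the vehicle and PB comparisons. With the median GC of the window rho was 0.10, with its median level -0.04 and with its number of DHSs -0.04. Rich and poor windows nonetheless held fewer DHSs, with medians of 46 and 63.5 against 90 in middle windows. A rank correlation cannot show a number that is low in both classes. Whether the class followed from small numbers of DHSs was not tested. All windows of a comparison share its samples, and these values are a description.

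**Figure D3:**
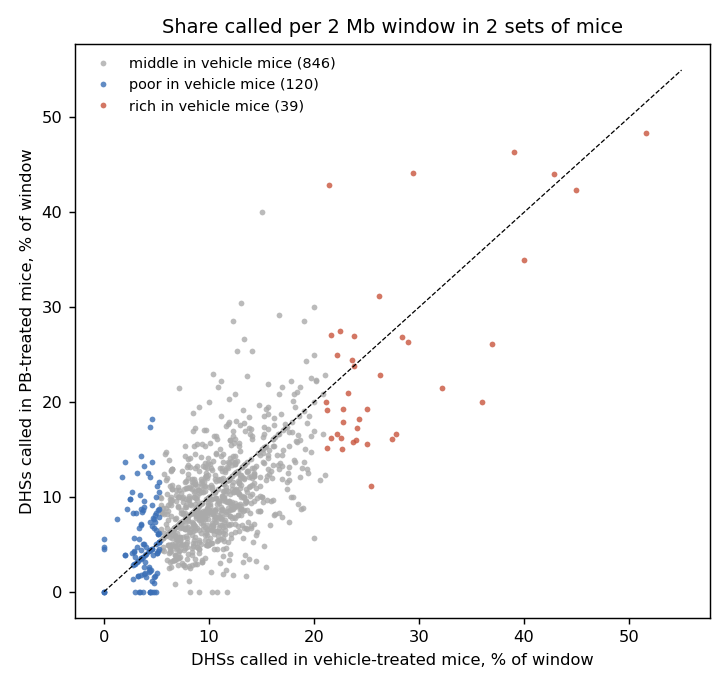
Percentage of DHSs called per 2 Mb window in vehicle-treated (x axis) and PB-treated (y axis) mice, 1 point per window, with the line of equal shares dashed. The 39 rich windows lie to the right, 22 of them also rich in PB-treated mice, and none of the 120 poor windows is rich there.

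Nearby calls tended to go one way. Among consecutive called DHSs, 388 of 415 pairs (93.5%) within 2 kb changed in the same direction, 81.0% at 2 to 10 kb, 65.3% at 10 to 100 kb and 55.4% farther apart. After a called DHS, the next DHS within 10 kb was called in 17.9% of cases, against 8.56% after an uncalled one. Within windows the directions mixed, and 38 of the 39 rich windows held calls in both.

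The mean log2 accessibility of all DHSs in a window was tested as well (limma over 1005 windows, FDR of at most 0.01). It differed in 159 windows (15.8%), 37 (3.68%) higher and 122 (12.1%) lower in B6C3F1, and 119 of these were called in the same direction in PB-treated mice. The direction split moved with the scaling, to 18 against 271 with median centring and 57 against 49 with quantile normalization, and with the summary, to 64 against 13 when the median DHS was used. From the uncalled DHSs alone, 46 windows passed, 2 higher and 44 lower. These DHSs were chosen by the calls in the same mice, so the values from them are a description. The rises with the largest size that passed were at chr3:112000001-114000000, the amylase region with Amy2b (0.60 ± 0.09, SE, FDR 0.00116), chr7:26000001-28000000 with the Cyp2a genes (0.49 ± 0.04, FDR 3.38e-08), chr13:102000001-104000000 (0.43) and chr7:40000001-42000000 (0.41). From its uncalled DHSs alone the last window was lower in B6C3F1 (-0.2508, limma FDR 0.00585), and that of the Cyp2a genes did not pass (-0.0104, FDR 0.853). Leaving out the called DHSs removed 7 higher and 2 lower calls from the last window and 13 and 5 from the Cyp2a window, and so lowered both means. A rise of 0.44 at chr5:14000001-16000000 did not pass (FDR 0.0817). At the Amy2b window the 4 B6C3F1 means were 7.29, 7.40, 6.99 and 7.05 and the C57BL/6 means 6.62, 6.65, 6.45 and 6.60, without overlap. The falls were at chr8:102000001-104000000 (-0.59), chr12:20000001-22000000 (-0.47), chr9:116000001-118000000 around Tgfbr2 (-0.47), chr15:4000001-6000000 with the complement gene C6 (-0.42) and chr11:64000001-66000000 (-0.40), and all 5 passed.

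The chromosome 7 window owed its mean to 1 stretch. Across 86.4 kb (chr7:26876775-26963208) between and around Cyp2a5 and Cyp2a22, cytochrome P450 genes of the coumarin hydroxylase family, all 10 DHSs were called. All stood at 1 read in each of the 4 C57BL/6 mice, which is the lowest value present and may also stand for no reads. In B6C3F1 the means of these DHSs were 74.5 to 437 normalized counts. Outside the stretch, 8 of the window's 125 DHSs (6.40%) were called. At the Cyp2a22 promoter (chr7:26939258-26939609, 47 bp from the start site) the B6C3F1 mice had 474, 398, 399 and 476 normalized counts, at least 201-fold above the level that 3 reads per sample would give in C57BL/6. The same 10 DHSs stood at 1 read in all 5 PB-treated C57BL/6 mice. Cyp2a22 RNA was also higher, at 6.46 ± 2.75 CPM against 0.388 ± 0.130 (SD, n = 4 each; log2 FC 3.71 ± 0.27, SE, limma FDR 3.67e-09). Cyp2a5 RNA was lower, at 310 ± 58.7 against 533 ± 83.5 CPM (log2 FC -0.79, FDR 0.00512). In all, 14 autosomal DHSs were at 1 read in every vehicle-treated C57BL/6 mouse, the others being near Mup10, Pramel22, Eapp and Gm17215, and 6 in every B6C3F1 mouse, 3 of those near Skint10.

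DHSs of largest change were taken among calls whose groups did not overlap, with a mean of at least 20 normalized counts in the higher group. Among the other rises, an intergenic site 149 kb from Epm2a (chr10:11492027-11492268) had 2859, 4246, 6683 and 2819 normalized counts in B6C3F1. In C57BL/6 it had 4.87, 1.42, 10.6 and 13.5 (log2 FC 9.12 ± 0.63, SE, FDR 2.37e-04). The Trpm3 site had 632, 721, 971 and 592 against 4.87, 0.712, 2.12 and 1.22 (log2 FC 7.95). The groups were far apart at both sites. The largest fall under the same rule was near Rab6b, a small GTPase gene (chr9:103108354-103109010), with 11.6, 1.76, 11.1 and 9.47 against 193, 243, 230 and 322 (log2 FC -4.90 ± 0.42, FDR 5.34e-06), and Rab6b RNA was lower too (log2 FC -3.01, FDR 6.40e-06). At the Rxfp1 site the means were 6.45 ± 2.52 and 160 ± 27.1 (log2 FC -4.48), and at the Skint10 site 3.70 ± 1.46 and 97.2 ± 16.8 (-4.43). A site 17.6 kb from Cyp4a12a, which encodes a male-biased fatty acid hydroxylase, fell from 302 ± 23.2 to 21.9 ± 18.9 (-4.09, FDR 0.00117), although Cyp4a12a RNA was higher in B6C3F1 (log2 FC 1.39, FDR 4.20e-05). The site near 4933427I04Rik was at least 9.18-fold lower, since every B6C3F1 mouse was at 1 read. All 10 of these sites passed in PB-treated mice in the same direction. Among the falls, repeat sequence (soft-masked in the reference) made up 61.8% of the Rab6b site and 73.0% of the Rxfp1 site. It made up 90.8% of the Cyp4a12a site and 100% of the 4933427I04Rik site, but 7.64% of the Skint10 site. The median over all autosomal DHSs was 9.08%. Whether reads were placed correctly at these repeats was not tested.

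**Figure D4:**
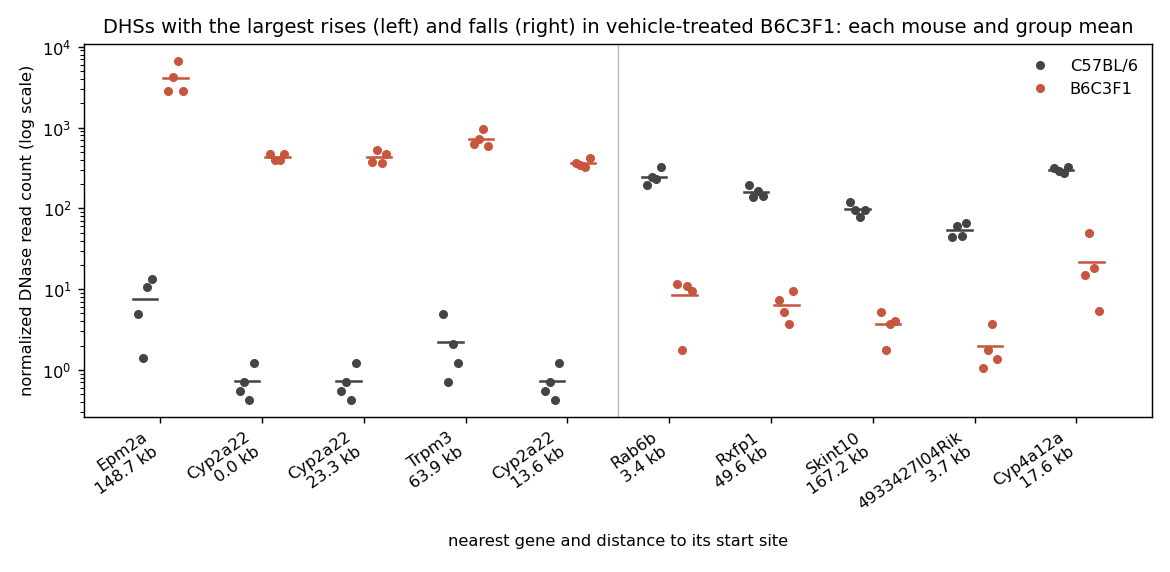
Normalized DNase read count on a log y axis for the DHSs with the 5 largest rises (left) and 5 largest falls (right) in B6C3F1, labelled by nearest gene and distance. Points are the 4 mice of each strain and bars their means. The 10 DHSs were chosen among calls whose groups do not overlap.

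In the Mup window, which encodes pheromone-binding proteins made in male liver, the rise with the smallest FDR was 36.6 kb from Mup16 (chr4:61555988-61556265; 194 ± 19.1 against 35.4 ± 5.97, log2 FC 2.43, FDR 3.31e-07) and the corresponding fall 7.58 kb from Mup11 (chr4:60669831-60670130; 101.2 ± 20.3 against 369 ± 52.7, log2 FC -1.87, FDR 1.39e-06). RNA differed for 9 of the 12 genes tested in the window. Mup7 was at 863 ± 490 CPM in B6C3F1 and 3462 ± 835 in C57BL/6 (log2 FC -2.35, FDR 0.00839), Mup1, Mup14 and Mup15 also fell (-2.25, -2.20 and -3.75), as did Mup6 and Mup11, and Mup8, Mup9 and Mup10 rose (3.19, 2.32 and 1.66). B6C3F1 mouse 3 was at 146 CPM of Mup7 and the others of its group at 966 to 1228. Mup genes are near-identical copies, so reads may be split between them and these values are uncertain. In the chromosome 13 window the sites of smallest FDR were near 4933416O17Rik (log2 FC 2.12) and Urml (-1.78), and in the chromosome 14 window 461 kb (2.34) and 227 kb (-2.03) from Gm5088.

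RNA differences were commoner in rich windows. Of the genes tested with a start site there, 29 of 287 (10.1%) were called, against 404 of 11476 (3.52%) in middle and 23 of 940 (2.45%) in poor windows, with 3.63% called over all 13838 genes tested (1.73% higher and 1.91% lower). The Mup cluster gave 9 of the 29. At promoters (DHS centre within 1000 bp of a start site), 924 of 11208 genes had a called DHS. RNA was called for 72 of these (7.79%) against 2.62% of the other genes, 66 in the same direction as the DHS and 6 opposite. Over all 924 genes the signs matched in 63.0%.

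Genes whose promoter and RNA moved together included Corin, a serine protease gene (DHS log2 FC 3.13, RNA 5.71), where RNA was 21.1, 18.9, 24.5 and 17.8 CPM in B6C3F1 and 0.535, 0.114, 0.322 and 0.313 in C57BL/6. They also included Slc17a8, a vesicular glutamate transporter gene (2.75 and 1.38), Igsf23 (2.25 and 2.69), Cep152, a centriole duplication gene (2.18 and 1.24), Tcf24 (1.97 and 4.27) and F630042J09Rik (2.59 and 2.51). Those lower in both were Trim30d (-2.29 and -1.06), 1700030C10Rik (-2.09 and -2.07) and 5830444B04Rik (-2.12 and -2.39). RNA of the last 2 averaged 1.05 and 0.739 CPM in C57BL/6. F630042J09Rik RNA was also near the floor, at 0.755 CPM in B6C3F1 and 0.047 in C57BL/6. The opposite pattern was seen at Cyp2c39, a retinoic acid hydroxylase gene, with a lower promoter DHS (-1.10) and higher RNA (62.0 ± 11.4 against 2.59 ± 0.629 CPM, log2 FC 4.54, FDR 6.88e-06), and at Ppfia4 (1.07 and -2.37) and Adgrv1 (-0.73 and 1.59).

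Gene lists were read against the promoter background of 7.26% called (6.08% higher and 1.18% lower). The major histocompatibility list stood highest, with 12 of 41 promoter DHSs called (29.3%), 2 higher and 10 lower. The antigen-presenting class I genes H2-D1 (50.6 ± 6.12 against 202 ± 35.1, log2 FC -1.97) and H2-K1 (-0.68) and the class II genes H2-Ab1 (-0.93) and H2-Eb1 (-0.76) were among those lower, and Tap2, a peptide transporter gene, was higher (0.59), as was H2-Ke6 (0.67), a steroid dehydrogenase gene in the same region. H2-D1 RNA was 128 ± 10.35 CPM in B6C3F1 and 90.7 ± 4.82 in C57BL/6, a log2 FC of 0.49 that did not reach the minimum fold. Some class I genes of the list are similar copies of one another, so reads may be split between them and their values are uncertain. B6C3F1 reads were aligned to the C57BL/6J reference, and any loss of reads at C3H variants in this region was not tested. Of 28 genes of the list tested in RNA, 6 were higher and 1 lower. Drug metabolism genes had 11 of 122 promoter DHSs called (9.02%), 6 higher and 5 lower. Gsta1, a glutathione transferase gene, fell from 701 ± 61.8 to 199 ± 38.7 (-1.83, FDR 2.55e-07) while its RNA stayed between 0.892 and 2.22 CPM in all 8 mice, and Ces2c also fell (-1.23). Ces1b rose slightly (0.60), with RNA of 216 ± 23.6 against 48.5 ± 6.66 CPM (log2 FC 2.16, FDR 9.70e-13). Acute phase and complement genes had 4 higher and 1 lower of 53 (9.43%), among them Apcs, the serum amyloid P gene (0.66, RNA log2 FC 1.71), and C4a (-0.93). Hepatocyte transcription factors had 3 higher of 33 (9.09%), Foxa1 (0.83), Prox1 (0.62) and Nr1i3 (0.60), the last encoding the PB-responsive receptor CAR. Lipid and bile acid genes had 3 higher of 47 (6.38%), including Srebf1 (0.87), a regulator of lipid synthesis. Sex-biased genes had 3 higher of 26 (11.5%), namely Cyp4a12a, Hao2 and Slco1a1, and the circadian clock list 1 of 25 (4.00%), Clock (0.83). At Cyp4a12a the 2 groups overlapped.

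Promoters and distal sites differed in direction. DHSs that overlapped the 1000 bp upstream of a start site were higher in 5.36% and lower in 1.13%, intragenic DHSs in 5.28% and 4.46%, and intergenic DHSs in 7.74% and 5.47%. Lower calls lay farther from a start site, with a median of 26.3 kb against 16.3 kb for higher calls and 16.4 kb for uncalled DHSs, and had a median GC of 46.2% against 49.1% and 47.9%. In the quintile of DHSs with the highest GC, 7.30% were higher and 1.67% lower. These became 2.21% and 1.802% after the samples were corrected for GC content. The promoter, intragenic and intergenic shares are not given with that correction or with median centring. How far the promoter split depends on either was not tested. The share called peaked at middle levels, with 16.5% in the middle quintile by mean count against 5.05% in the lowest and 4.88% in the highest. Of the 21 lower calls past -3, 10 were at least 50% soft-masked repeat, against 4.60% of all autosomal DHSs.

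Short words of factor binding sites were searched on both strands in the central 200 bases of each autosomal DHS. The forkhead word was TGTTTAC and the AP-1 word TGANTCA. Longer words were TTGCNNAA for C/EBP, CAAAGTCCA for HNF4A, TTCNNNGAA for STAT, GGNGGCAG for CTCF and GTTAATNA for HNF1. The word for nuclear receptors was AGGTCA. Words of different factors could overlap. The CTCF word was present in 15.7% of higher, 5.20% of lower and 8.18% of all DHSs. The receptor word went the other way, with 13.8% of higher, 31.1% of lower and 22.2% of all DHSs, as did C/EBP (9.29%, 20.3% and 14.5%), FOXA (3.29%, 7.83% and 5.65%) and HNF4A (0.62%, 2.14% and 1.59%). STAT, AP-1 and HNF1 words differed less. The order held for CTCF, C/EBP and the receptor word among distal DHSs within each quintile of GC content, with the GC correction, with median centring, after thinning, without B6C3F1 mouse 3 and in PB-treated mice, where CTCF was in 13.0% of higher and 4.77% of lower calls. FOXA and HNF4A words were also commoner in lower than in higher calls in each quintile, but in the quintile of highest GC FOXA was in 3.07% of lower and 3.31% of uncalled DHSs, and in that of lowest GC HNF4A was in 1.74% of lower and 2.06% of uncalled DHSs. A match is a word in the reference and not a measured binding event.

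**Figure D5:**
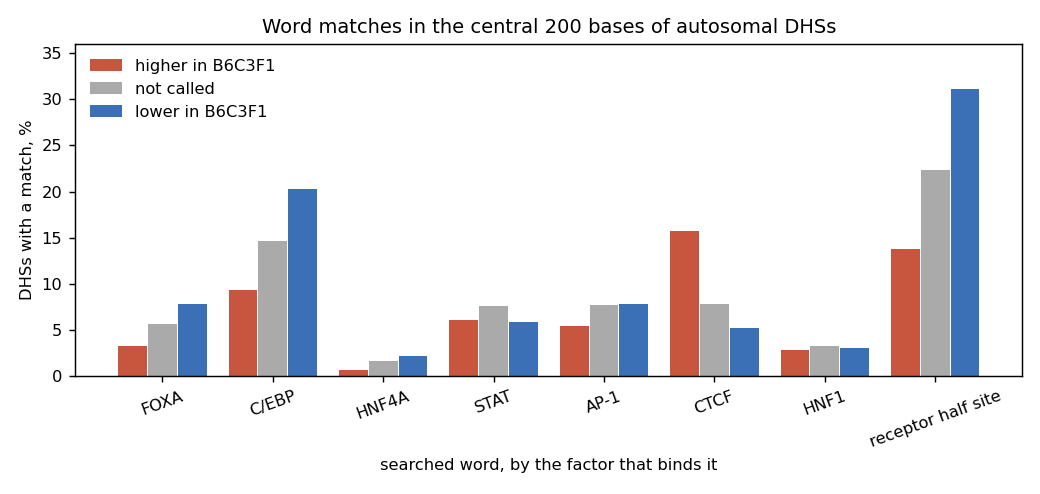
Percentage of autosomal DHSs with each searched word in their central 200 bases, for DHSs higher in B6C3F1, not called and lower in B6C3F1. The CTCF word is commonest in the higher calls, and the receptor (AGGTCA), C/EBP, FOXA and HNF4A words in the lower calls.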

How the data were processed

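Per the labels and the study's methods, the authors aligned DNase-seq reads to mm10 with Bowtie2 2.1.0, called peaks with MACS2 2.1.1.20160309 and counted reads in DHSs with DiffBind 1.16.3. The deposited DNase signal was read counts times one factor per mouse, with 1 read as the lowest value, and whole reads were recovered from it. This lowest value may also stand for no reads. RNA was aligned with STAR 2.4.0f1, and the deposited CPM values were TMM-scaled with edgeR 3.12.1. B6C3F1 reads were aligned to the C57BL/6J reference, which the authors chose after also aligning them to an imputed C3H/HeJ genome and finding few read pairs that differed. Any loss of reads at C3H variants was not tested here and cannot be told apart from lower accessibility. Here, DHSs were tested with limma 3.58.1 (trend and robust) on log2(normalized count + 1) in the 8 vehicle-treated mice, and RNA on log2(CPM + 0.1) in 18 samples, with CPM of at least 0.4 in 3 samples of a group. Fold changes on this scale understate changes of low values. Genes and start sites (31647) came from RefSeq on GRCm38, and regions are given in that build. Alternatives were edgeR 4.0.16 and DESeq2 1.42.0 on recovered reads and the settings given at the end. The tests were checked on simulated data. Named items were the 5 extremes of each kind, the longest blocks, the DHSs of smallest FDR in the 3 richest windows, genes with a concordant or opposite promoter and RNA change, and list members with a called promoter. Members and lists were chosen with earlier results of these data known. Replicates were separate mice. Some genes of the lists and regions are not reported here.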

Additional observations from a re-analysis of the deposited data

Results flagged for a closer look

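Of 122 groups of 4 mice tested for a single distant value, 7 had one, close to the 1 in 20 that chance gives. Mean log2 accessibility was 7.06 in C57BL/6 mouse 1 in the chromosome 13 window from 68 Mb (others 7.02), 6.57 in B6C3F1 mouse 2 in the chromosome 12 window from 20 Mb (others 6.69 to 6.70) and 5.97 in B6C3F1 mouse 3 in the chromosome 9 window from 116 Mb (others 6.23 to 6.24). The Cep152 promoter DHS had 151.3 normalized counts in B6C3F1 mouse 3 against 122.9 to 127.1 in the others. RNA of 5830444B04Rik was 0.134 CPM in B6C3F1 mouse 2 and 0 in the others. Cyp2c39 RNA was 3.53 CPM in C57BL/6 mouse 1 against 2.23 to 2.35. Adgrv1 RNA was 2.62 CPM in C57BL/6 mouse 3 against 3.41 to 3.57.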

How the results depend on the processing

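Thinning to the shallowest mouse left 5750 autosomal calls (3.07% of DHSs higher, 2.90% lower), 26 on X, 81 rich and 197 poor windows. An FDR of 0.05 gave 18075 (10.0% and 8.77%), 239 on X, 13 rich and 40 poor, a log2 FC of at least 1 gave 4302 (2.30% and 2.17%), 42, 111 and 254, and no minimum fold gave 25 rich windows. X held 134 calls by edgeR and 164 by DESeq2, and DESeq2 gave 22 rich and 67 poor windows. Rich and poor windows numbered 73 and 267 at 1 Mb, 12 and 24 at 5 Mb, 125 and 237 with limits of 1.5 and 0.67 times, and 103 and 267 from DHSs called the same way in PB-treated mice, chosen after seeing the data, while 23 were rich with at least 40 DHSs per window. Window means differed in 77 windows by the median DHS (64 higher, 13 lower), 46 from uncalled DHSs (2 and 44) and 289 with median centring (18 and 271), and quantile normalization gave 57 and 49. With uncalled DHSs only, a subset set by the same calls, the rises from 26 and 40 Mb on chromosome 7 reversed to -0.0104 (not past the threshold) and -0.2508 (past it). The causes were not tested.

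Leaving out 1 mouse gave 4955 to 12425 autosomal calls (3.04% to 6.64% of DHSs higher, 2.11% to 6.26% lower), 19 to 124 on X, 27 to 86 rich and 94 to 246 poor windows. It gave 100 to 159 window means (25 to 40 higher, 70 to 119 lower), 358 to 481 RNA calls (185 to 229 higher, 173 to 254 lower) and 6316 to 10490 PB calls. The lowest DHS counts came without C57BL/6 mouse 2 and the highest without B6C3F1 mouse 3. Same-numbered mice did not deviate together (correlations of -0.209 to -0.0401 in DNase, -0.0492 to -0.0131 in RNA), so the numbers gave no pairing. A replicate block left 7094 autosomal calls, 42 on X, 53 rich and 187 poor windows. Named DHSs kept their side of the threshold in 366 of the comparisons run and lost it in 1.

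The B6C3F1 samples were the shallower ones, and depth limits the precision of their values.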

Other observations

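The DHSs with falls near Rab6b and Cyp4a12a, on different chromosomes, shared sequence in the reference, a comparison made after their values were seen. They had 98 identical stretches of 50 bases in common, counted at every start position, so these stretches overlap and are not separate repeats. In all, 35 autosomal DHSs on 16 autosomes held at least 1 of these stretches. Of these, 15 were lower in B6C3F1 and 0 higher, with a median log2 FC of -1.07 and a range of -4.90 to 1.69, against 4.37% lower over all autosomal DHSs. The Rab6b and Cyp4a12a sites, picked for their large falls, are themselves among the 35 and the 15, and the -4.90 is the Rab6b site. In PB-treated mice 16 were lower, again including those sites, and 0 higher, with a median of -0.76. Whether reads of these near-identical sites were placed at the right copy was not tested.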
